A study of Urocitellus parryii with 3 samples.

Results

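miR-192 and miR-194 are microRNAs (miRNAs, short RNAs that lower the output of the messenger RNAs they pair with) of epithelial organs. They were followed here through the hibernation cycle of the arctic ground squirrel (Urocitellus parryii). The members were the array spots with a probe for a miRNA, not a control, whose entry name was mmu-miR-192 or mmu-miR-194, which gave 2 of the 577 miRNA entries on the array. Total RNA of liver came from animals in late torpor (spelled "late topor" in the labels), when the body is cold and metabolism is low, in early arousal, when the animal rewarms, and in post-reproduction, which lies outside hibernation. All samples were liver of this species, with no genotype or drug treatment given in the labels, and the ages and number of animals are not given in the sources used here. RNA of the animals of a stage was pooled, and 100 ng of each pool was labelled with the dye Cy3 and hybridised to 1 array, so the study had 3 arrays. Neither a spread between animals nor a test of a stage was therefore to be had. The errors below come from the repeated spots of a probe on an array and cover spot spread only.

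In mammals miR-192 and miR-194 are encoded next to each other in one cluster, and a second copy of miR-194 lies beside miR-215 in another cluster on a different chromosome. Both clusters are switched on by the hepatocyte nuclear factor HNF1 in liver, kidney and gut epithelium, where miR-192 and miR-194 are abundant. miR-215 carries the same seed, the stretch that selects targets, as miR-192. miR-194 has a seed of its own.

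Both members were bright and nearly level across the 3 stages. After scaling, miR-192 was 1.14-fold higher in late torpor than in post-reproduction (95% interval from spots 1.11 to 1.17) and 1.11-fold higher in early arousal than in post-reproduction (1.09 to 1.14). miR-194 was 1.02-fold higher in late torpor (0.984 to 1.05) and 1.06-fold higher in early arousal (1.03 to 1.09) than in post-reproduction. Between early arousal and late torpor the folds were 0.977 (0.954 to 1.001) for miR-192 and 1.04 (1.01 to 1.07) for miR-194. No difference came near the 2-fold size used to call a miRNA, and the sign of each, 6 in all, turned under at least 1 of 6 other scalings of the arrays. Of these scalings 5 shift every miRNA of an array alike. Quantile normalization, which does not, turned 4 of the signs and kept both for early arousal against late torpor.

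Each member had 2 probes of 10 spots. The probes of miR-192 have targets of 18 bases (probe A_54_P2460) and 19 bases (probe A_54_P2461) on mouse chromosome 19, at 6264860 to 6264877 and at 6264859 to 6264877 in the mm9 build that the file headers name. Those of miR-194 have targets of 16 bases (probe A_54_P1151) and 15 bases (probe A_54_P1152) on mouse chromosome 1, at 187137210 to 187137225 and at 187137211 to 187137225. The files list the larger coordinate first, and no annotation of exons, introns or host genes was used here. The larger coordinates of the chromosome 1 targets of miR-194 and miR-215 lie 284 bases apart. Since the mature miR-194 of both clusters is the same molecule in mouse, the probes read the sum of the copies, whichever position the files name. The array had no entry named miR-192* or miR-194*, so the star strands of both members could not be analysed. The probes were designed for mouse, and how well they pair with the squirrel's miRNAs was not tested.

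The arrays were similar in background but not in every measure of quality. Outlier spots numbered 280 in late torpor, 398 in early arousal and 317 in post-reproduction. On the late torpor array 158 of the 567 mouse miRNAs were detected, against 152 for early arousal and 143 for post-reproduction. The 672 negative control spots had a median of 1.69, 1.36 and 1.21 intensity units in that order, and 95% of them lay below 5.25, 5.29 and 5.31. The highest of them was at 86.0, 57.3 and 176. No spot for a miRNA was saturated. All 10 spots of each member probe were marked well above background on every array. The 3 arrays lay on 1 slide, so no slide separates them, while the stage of a pool and its place on the slide cannot be told apart. In such tissue RNA, fewer cells of a type and less of a miRNA per cell cannot be told apart either.

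Before any scaling, the spots of miR-192 covered almost the same range in each stage. The 18-base probe ran from 856 to 989.8 intensity units in late torpor (median 925), from 905 to 994 in early arousal (median 954) and from 904 to 991 in post-reproduction (median 951). The spots of all 3 stages overlapped. The brighter 19-base probe ran from 2692 to 2941 in late torpor (median 2820.2, over 9 spots after 1 outlier was left out), from 2419 to 2812 in early arousal (median 2627) and from 2527 to 2880.4 in post-reproduction (median 2769.9). Here too every stage overlapped the others, with early arousal the lowest by its median.

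For miR-194 the post-reproduction array was the brightest before scaling. The 16-base probe ran from 1114 to 1349 in late torpor (median 1232), from 1166 to 1320.1 in early arousal (median 1219.7) and from 1253 to 1495 in post-reproduction (median 1373). The 15-base probe ran from 366 to 378 in late torpor (median 371), from 385 to 435 in early arousal (median 399.7) and from 392 to 452 in post-reproduction (median 409). With this 15-base probe the 7 kept late torpor spots lay below every spot of the other stages. The 3 spots left out as outliers were at 362, 401 and 417, and 2 of these lay within the early arousal range. How many of all detected probes lack overlap before scaling was not counted, so this is not read as particular to miR-194. The spread of the kept spots of a probe on an array, as a coefficient of variation, was 1.15% to 7.40%.

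**Figure D1:**
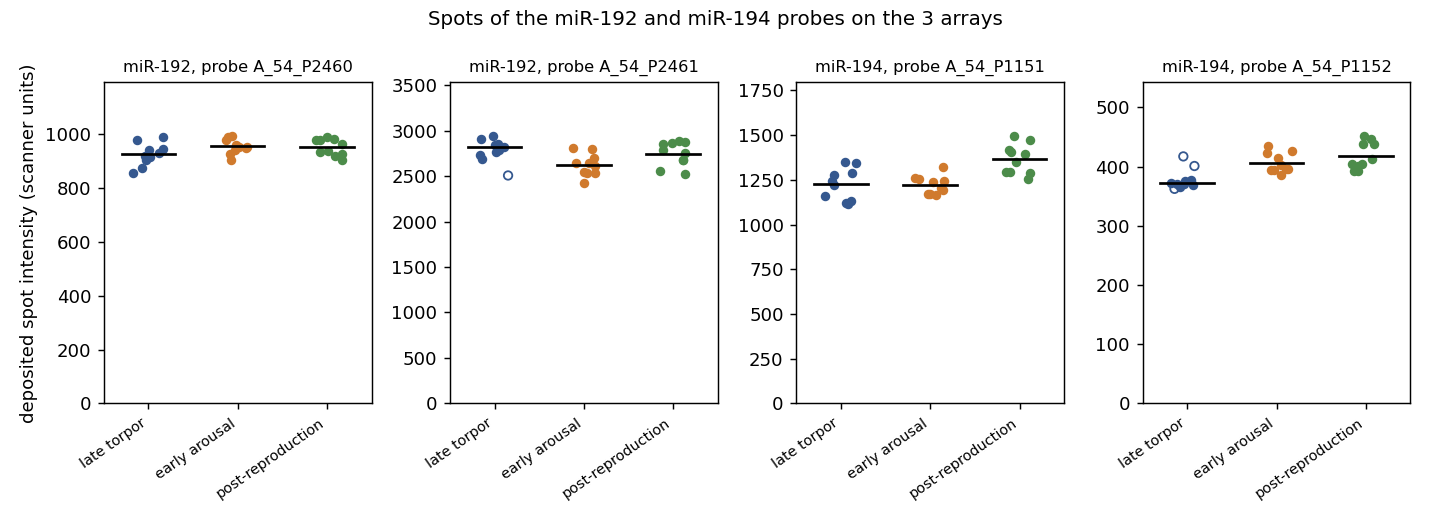
Deposited intensity (scanner units, axis from 0) of every spot of the miR-192 and miR-194 probes on the late torpor, early arousal and post-reproduction arrays. Filled points are kept spots, open circles are spots marked as outliers, and black lines are means of the kept spots. In the 15-base probe of miR-194 (A_54_P1152) the 7 kept late torpor spots lie lowest, before scaling. The stages overlap in the other probes, and overlap over all detected probes was not counted.

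To set arrays beside each other, log2 intensity was averaged over the kept spots of a probe and the 75th percentile of its array was subtracted, computed over the 250 probes that every array detected. On this scale miR-192, as the mean of its probes, was at 2.21 ± 0.012 in late torpor, 2.18 ± 0.013 in early arousal and 2.02 ± 0.013 in post-reproduction (SE over 19, 20 and 20 spots). Its order was thus late torpor, early arousal, post-reproduction, and the highest pair did not differ beyond the interval from spots. miR-194 was at 0.95 ± 0.017 in late torpor, 1.01 ± 0.013 in early arousal and 0.92 ± 0.019 in post-reproduction (SE over 17, 20 and 20 spots). Its highest level was in early arousal, and late torpor and post-reproduction did not differ beyond the interval from spots.

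The first comparison asked how the liver in late torpor differs from the liver outside hibernation. miR-192 had a log2 difference of 0.19 ± 0.018 (SE from spots), and both probes lay on the same side, at 0.15 ± 0.026 for the 18-base probe and 0.23 ± 0.026 for the 19-base probe. All 10 and all 9 pairs of spots at the same array position were higher in late torpor after scaling. Without scaling these counts were 2 of 10 and 8 of 9. miR-194 had a difference of 0.03 ± 0.025, with 0.03 ± 0.044 for the 16-base probe and 0.02 ± 0.026 for the 15-base probe. Its paired spots were split 5 to 5 in the longer probe and 5 to 2 in the shorter one, and without scaling all 17 were lower in late torpor. Among the 135 mouse miRNAs measured on every array, 2.22% passed the rule of size (a log2 difference of at least 1, beyond 2 SE, of the same sign in each probe), and neither member did.

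The second comparison set early arousal against post-reproduction. miR-192 had a difference of 0.16 ± 0.018, with 0.19 ± 0.020 for the 18-base probe and 0.12 ± 0.031 for the 19-base probe. All 20 paired spots were higher in early arousal after scaling, against 7 of 10 and 2 of 10 without it. miR-194 had a difference of 0.085 ± 0.023. Its probes stood further apart than those of miR-192, at 0.02 ± 0.033 for the 16-base probe and 0.14 ± 0.031 for the 15-base probe, and 7 of 10 and 10 of 10 paired spots were higher in early arousal after scaling, against 0 of 10 and 2 of 10 without it. Neither member passed the rule, which 3.70% of the measured miRNAs did.

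The last comparison, early arousal against late torpor, stayed within the hibernation season. miR-192 had a difference of -0.033 ± 0.018 and miR-194 one of 0.058 ± 0.022. In this comparison the 2 probes of each member differed. The 18-base probe of miR-192 was at 0.041 ± 0.025 and higher in early arousal in 9 of 10 paired spots, while its 19-base probe was at -0.11 ± 0.025 and lower in 8 of 9. The 15-base probe of miR-194 was at 0.12 ± 0.019 and higher in 7 of 7, while its 16-base probe was at -0.0074 ± 0.039 with 5 of 10 higher.

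The gap between probes was 0.15 in miR-192 and 0.13 in miR-194. Over the 105 measured miRNAs with more than 1 probe the median gap in this comparison was 0.064, and 22 had a larger one than miR-192. In both members the dimmer probe gave the higher value, as did the dimmest probe of 68 of those 105 miRNAs. The difference of miR-192 and that of miR-194 are thus smaller than the disagreement between their own probes. Of the measured miRNAs 2.96% passed the rule here, and again neither member did.

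**Figure D2:**
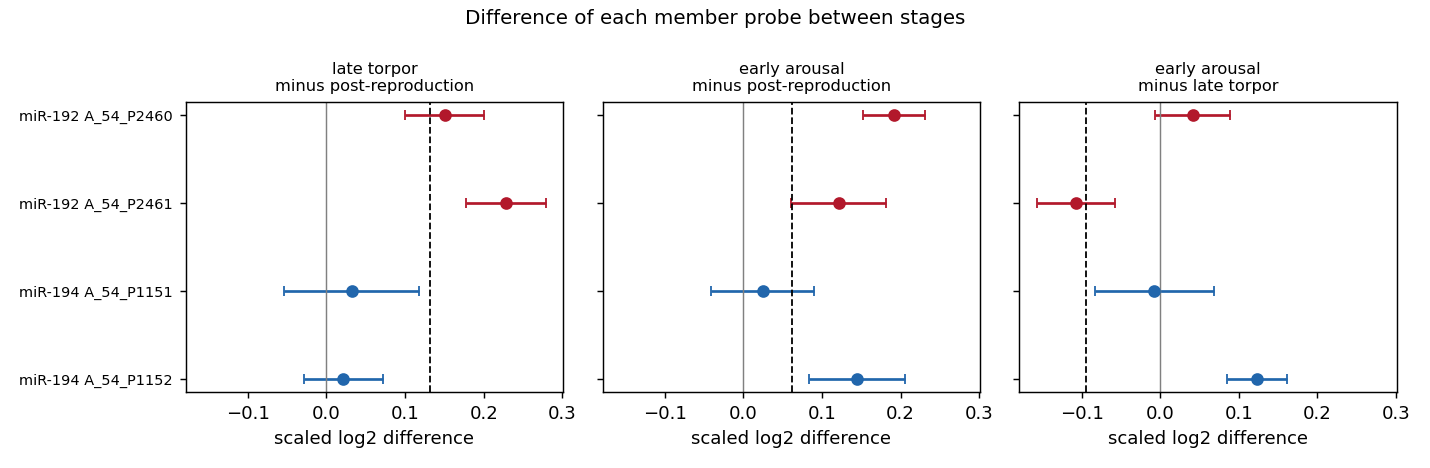
Scaled log2 difference of each probe of miR-192 (red) and miR-194 (blue) in the 3 comparisons, with 95% intervals from spots; the dashed line is the median of the 135 measured miRNAs and the grey line is 0. The probes of miR-192 lie at 0.15 and 0.23 in the first panel and on opposite sides of 0 in the third.

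Since a shift of a whole array moves every miRNA alike, the members were also placed against the median of the 135 measured miRNAs, which was 0.13, 0.062 and -0.094 in the 3 comparisons. miR-192 lay above that median by 0.058 for late torpor against post-reproduction, by 0.094 for early arousal against post-reproduction and by 0.061 for early arousal against late torpor. Of 14 other ways of processing, 9 could move this value, since the rest shift whole arrays. miR-192 lay above the median in 8 of the 9 each time and below it after quantile normalization (-0.10, -0.13 and -0.031). miR-194 lay at -0.10, 0.022 and 0.15 from the median in that order. The first lay below and the last above the median in those 9, while the second lay below it in 4 of them.

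Both members lay between the lower and the upper quartile of the measured miRNAs in each comparison. In early arousal against late torpor miR-194, at 0.058, was close to the upper quartile of 0.061. For late torpor against post-reproduction 24 of the 135 were closer to the median than miR-192 and 30 were closer than miR-194. For early arousal against post-reproduction the counts were 28 and 5. For early arousal against late torpor they were 27 and 66, so that miR-194 was there about as far from the median as a typical miRNA, with 98 miRNAs below it and 36 above.

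**Figure D3:**
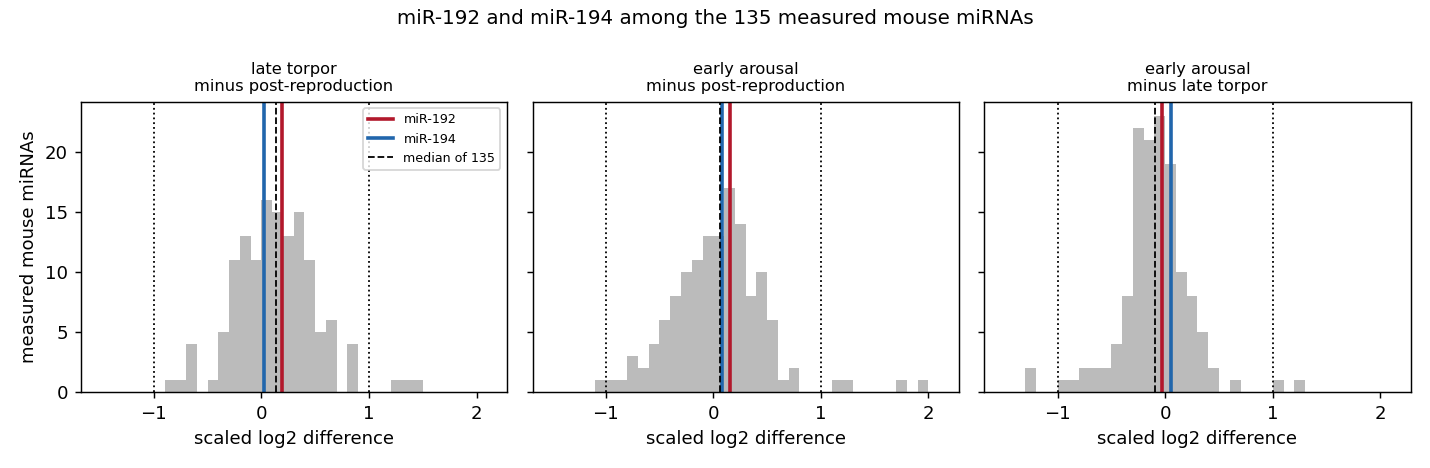
Number of measured mouse miRNAs (135 in all) by scaled log2 difference in the 3 comparisons, in bins of equal width; red and blue lines mark miR-192 and miR-194, the dashed line the median, and dotted lines the rule of size at 1 on either side. Both members lie between the lower and the upper quartile of each distribution, with miR-194 close to the upper one in the last panel.

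miR-192 minus miR-194, the difference between the members, does not move when a whole array is shifted. For late torpor against post-reproduction the difference of miR-192 exceeded that of miR-194 by 0.16 ± 0.031 (SE from spots, 95% interval 0.10 to 0.22). For early arousal against post-reproduction it did so by 0.072 ± 0.029 (0.014 to 0.13), and for early arousal against late torpor the value was -0.091 ± 0.028 (-0.15 to -0.036). Relative to miR-194, miR-192 was thus 1.12-fold higher in late torpor and 1.05-fold higher in early arousal, each against post-reproduction. After quantile normalization the first turned to -0.018 and the second to -0.11. The intervals above cover spot spread only. With the deposited total signal, described next, the 3 values were 0.18 ± 0.23, 0.087 ± 0.23 and -0.091 ± 0.23. Each was smaller in size than its error. The second spot value, 0.072, was below the gap between the probes of miR-194 (0.12) and just above that of miR-192 (0.070). The third was smaller in size than both gaps (0.13 and 0.15). The first, 0.16, was above both (0.010 and 0.078). Of the 9045 pairs of measured miRNAs, 25.3%, 10.0% and 20.1% differed by less in the 3 comparisons, so the members were closer together than most pairs. Since both lay between the quartiles in each comparison, no link between them is drawn from this.

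The extraction program also deposits 1 total signal per miRNA with its own error, which allows for a multiplicative part that the spread of spots leaves out. For miR-192 this total was 2678 ± 212 in late torpor, 2545 ± 199 in early arousal and 2640.4 ± 208 in post-reproduction. For miR-194 it was 1143 ± 91.9, 1157 ± 91.6 and 1275 ± 102. The errors were 7.81% to 8.04% of the totals. For miR-194 in late torpor against post-reproduction the ratio of totals was 0.896, a log2 value of -0.16 with a combined error of 0.16. It was the largest of the 6 differences between totals, and each of the 6 was smaller than its combined error before any scaling. After the totals were scaled, the differences of miR-194 from post-reproduction, -0.28 for late torpor and -0.19 for early arousal, exceeded their errors of 0.16, and the other 4 did not.

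miR-215, the neighbour of the second miR-194 copy and the seed partner of miR-192, was not detected on any array. None of its 20 spots on an array was marked well above background. The mean of the kept spots of its probes was -0.12 and -1.56 intensity units in late torpor, -0.72 and -0.52 in early arousal and -1.06 and -1.28 in post-reproduction, each below the median of the negative control spots. Its probes thus carried no signal above background on arrays where the probes of miR-192 were bright.

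Among the measured miRNAs, the profiles over the 3 arrays nearest to miR-192 were those of miR-361, miR-195, miR-497, miR-30d and miR-30a, with distances of 0.026 to 0.061 (Euclidean, in scaled log2 units, each miRNA centred on its own mean over the arrays). The median distance to the other 134 was 0.26, and miR-194 ranked 19th at 0.12. Nearest to miR-194 were miR-23b, miR-30c, miR-26a, miR-30a* and miR-145, at 0.013 to 0.052, and miR-192 ranked 18th. With 3 arrays these distances describe the arrays and nothing more.

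A list of miRNAs drawn up here for hepatocytes, the main cells of liver, was set beside the members. Of the 7 listed, 5 were measured (miR-122, miR-148a, miR-193, miR-365 and miR-101a), and miR-101b and miR-455 were not detected. Whether each of them is particular to hepatocytes was not tested, so the list is not a measure of these cells alone. For late torpor against post-reproduction all 5 lay above the median of measured miRNAs, with a list median of 0.34 against 0.13 over all 135. miR-122, the leading miRNA of hepatocytes, was at 0.34 ± 0.028, and miR-148a was at 0.37 ± 0.015. Both members were below every one of these, the lowest being miR-365 at 0.23 ± 0.022. That order did not hold in the other comparisons, where both members were above miR-148a, at -0.014 and -0.39. For early arousal against post-reproduction 4 of 5 lay above the median, with a list median of 0.23 against 0.062, and for early arousal against late torpor 2 of 5 did (3 of 5 after quantile normalization), with -0.20 against -0.094. None of them passed the rule.

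miRNAs of bile duct and other epithelia formed a second list, in which 4 of 12 were measured and the other 8, among them miR-200c, miR-141 and miR-429, were detected on no array. For late torpor against post-reproduction all 4 lay below the median of measured miRNAs (3 of 4 after quantile normalization), with a list median of -0.26. miR-200b and miR-200a, which hold epithelial cells in their state by restraining Zeb factors, were at -0.89 ± 0.056 and -0.62 ± 0.070, while miR-203 and miR-31 were at 0.12 ± 0.059 and 0.089 ± 0.017. For early arousal against post-reproduction 3 of the 4 lay below (2 after quantile normalization), with a list median of -0.15, and for early arousal against late torpor all 4 lay above, with 0.14. None passed the rule. In the first comparison miR-194 was on the same side of the median as these miRNAs, and miR-192 was above it, but below after quantile normalization.

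Markers of other cells were measured as well. The summed intensity of the 3 red blood cell miRNAs was 3223 in late torpor, 1954 in early arousal and 1549 in post-reproduction. All 3 passed the rule in the first comparison at the reported setting, where 3 of the 135 measured miRNAs (2.22%) did. Under the other ways of processing 1 to 3 miRNAs passed as higher there, so not all 3 passed in each. The sum of the 7 leukocyte miRNAs (6 measured, miR-155 not detected) was 617 in late torpor, 444 in early arousal and 504.5 in post-reproduction. In the same order that of the 4 endothelial ones was 1284, 1174 and 1280.4, and that of 4 mesenchymal ones 126, 116 and 142. Another listed mesenchymal miRNA, miR-199a-3p, had no entry on the array. The 4 muscle miRNAs summed to 31.6, 19.0 and 14.6, and none was measured on every array. The hepatocyte list summed to 44825, 39202 and 39364, and the epithelial list to 204, 206 and 258. All these sums are of intensity before scaling and include listed miRNAs that were not detected. Brightness that differs between arrays is thus part of them, and the brightest entries of a list weigh most. They also hide entries whose scaled log2 differences had opposite signs. In the first comparison the endothelial miR-126-3p and miR-126-5p were at 0.35 and 0.27, against -0.23 and -0.42 for miR-221 and miR-222. Of the measured leukocyte miRNAs 5 were above 0, while miR-146a was at -0.27. In early arousal against late torpor miR-365 and miR-101a were at 0.25 and 0.058, while the other 3 measured hepatocyte miRNAs were below 0. What part the shifts in the sums have in the values of miR-192 and miR-194 was not tested.

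**Figure D4:**
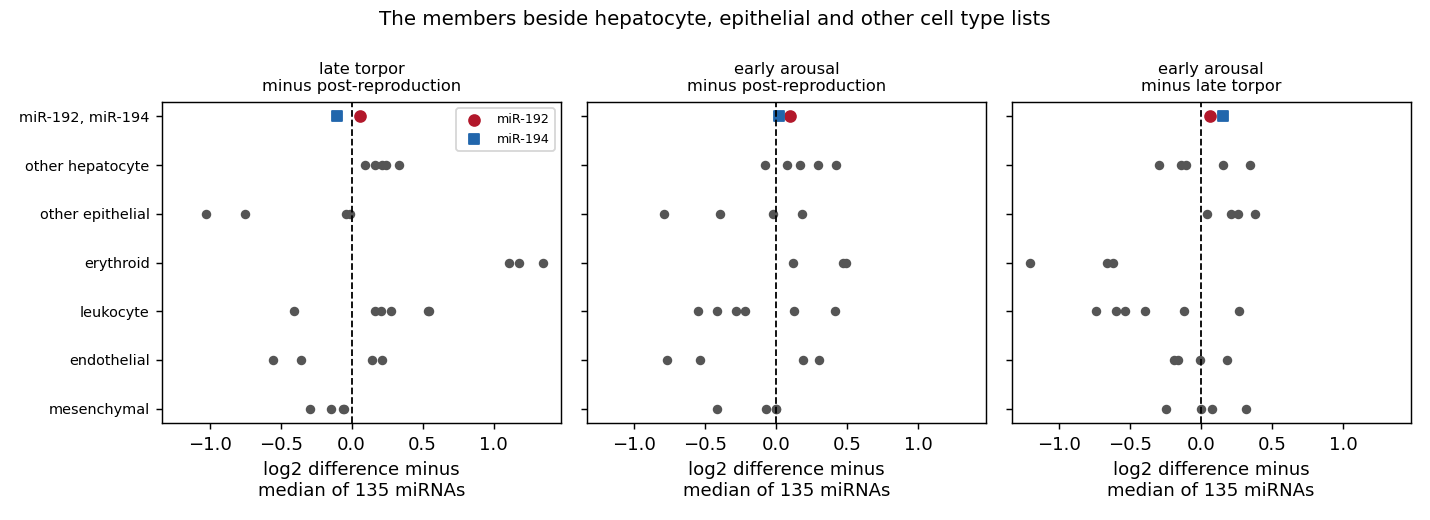
Scaled log2 difference minus the median of the 135 measured miRNAs, for miR-192 (red circle), miR-194 (blue square) and the measured miRNAs of 6 cell type lists (grey), in the 3 comparisons. The members lie near the dashed line at 0, while the red blood cell miRNAs lie above it in the first panel and miR-200a and miR-200b below.

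The sign of the members' differences depended on the scaling. The 75th percentile was 349 intensity units in late torpor, 350.4 in early arousal and 398 in post-reproduction. All 4 member probes lay above it on each array. When these 4 probes were left out of its computation, it became 338, 314 and 339, a shift of -0.047, -0.16 and -0.23 in log2 units, because other probes then stood at that rank. Under this alternative the difference of miR-192 between late torpor and post-reproduction was 0.0063 and that of miR-194 was -0.16. Over 6 other scalings miR-192 was above 0 in 3, 2 and 3 of them for the 3 comparisons, and miR-194 in 0, 2 and 5. Neither member reached a log2 difference of 1 in any of the alternatives.

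**Figure D5:**
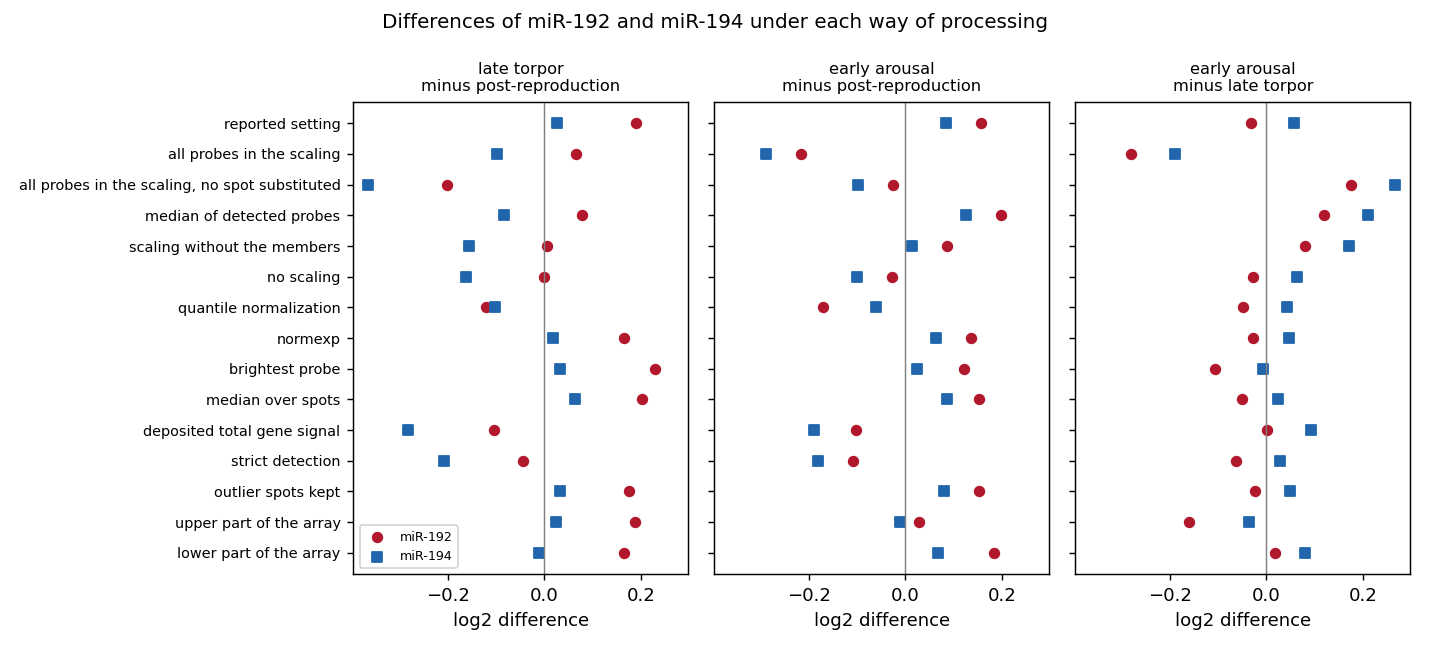
Log2 difference of miR-192 (red circles) and miR-194 (blue squares) in the 3 comparisons under the reported setting and 14 others; the grey line is 0. Points run from -0.36 to 0.27 and fall on both sides of 0 for each member in each comparison.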

How the data were processed

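Liver RNA pools of 3 stages, 1 array each, were read from the scanner files. Per the file headers and the submitters' processing notes, the deposited intensity of a spot was made with Agilent Feature Extraction 9.5.3.1 by subtracting a spatial background trend, with no step between arrays. Per the file headers, that program also made the deposited flags (other values) and the total signal of each miRNA. The deposited series table equalled the scanner intensity at all 12493 spots of each array (linear, uncentred, medians 1.15, 1.05 and 1.13 for late torpor, early arousal and post-reproduction).

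Control spots and outlier spots (280, 398 and 317) were left out. Spots at or below 0 took the lowest well-above-background intensity of their array. log2 values were averaged per probe, scaled by the 75th percentile over probes detected on all 3 arrays (over 50% of spots well above background), and averaged per miRNA. No test was made, since each stage has 1 array. Python 3.11.15, numpy 2.4.6, pandas 2.3.3, R 4.3.3 and limma 3.58.1 (normexp, offset 50) were used. The calculation was tested on simulated data, scaled by the median of the detected probes and with planted differences past the rule of size. That test covered neither the 75th percentile nor planted differences as small as those of the members. The members, lists and alternatives were chosen with earlier results of these data known. Named miRNAs were the members, miR-215, the star strands (without an entry on the array), the 5 nearest profiles of each member and the listed miRNAs.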

Additional observations from a re-analysis of the deposited data

How the results depend on the processing

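The differences of miR-192 and miR-194 were recomputed under 12 alternatives, and also in the upper and the lower part of the array, a split chosen after the data were examined. Below, the 3 comparisons are late torpor against post-reproduction, early arousal against post-reproduction and early arousal against late torpor, in this order, and only values outside the 95% interval from spots are given. In 105 of 162 recomputed values the change stayed within that interval, or within 1.5 times for a count. These include miR-192 minus miR-194, which a scaling that shifts whole arrays cannot move. Of 14 recomputed values for each comparison, the difference of miR-192 stayed within the interval in 5, 5 and 6. That of miR-194 did so in 6, 5 and 8. With all probes in the scaling, miR-192 was at 0.065, -0.22 and -0.28 and miR-194 at -0.098, -0.29 and -0.19. With all probes and no spot substituted, miR-192 was at -0.20, -0.026 and 0.18 and miR-194 at -0.36, -0.098 and 0.27. With the median of the detected probes, miR-192 was at 0.079, 0.20 and 0.12, and miR-194 at -0.084 in the first comparison and 0.21 in the last. With the members left out of the scaling, miR-192 was at 0.0063, 0.085 and 0.079 and miR-194 at -0.16, 0.014 and 0.17. Without scaling, the first 2 comparisons gave -0.00080 and -0.029 for miR-192 and -0.16 and -0.10 for miR-194. After quantile normalization they gave -0.12 and -0.17 for miR-192, -0.10 and -0.061 for miR-194, and -0.018 and -0.11 for miR-192 minus miR-194. With the brightest probe, miR-192 was at 0.23 in the first comparison and -0.11 in the last, and miR-194 at 0.024 in the second and -0.0074 in the last. With the deposited total signal, miR-192 was at -0.10, -0.10 and 0.0018, and miR-194 at -0.28 and -0.19 in the first 2. With strict detection, which measured 128 miRNAs, the first 2 gave -0.045 and -0.11 for miR-192 and -0.21 and -0.18 for miR-194. In the upper part of the array, miR-192 was at 0.027 and -0.16 and miR-194 at -0.012 and -0.036 in the last 2 comparisons, and in the lower part miR-192 was at 0.019 in the last. The cause of these shifts was not tested, apart from the scalings, which move all miRNAs: over the 6 other scalings the median of the measured miRNAs ran from -0.26 to 0.021, from -0.31 to 0.10 and from -0.34 to 0.12.

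The miRNAs past the rule of size were 3, 5 and 4 in the 3 comparisons. They were 10 in the second comparison with all probes in the scaling (2 higher and 8 lower, against 4 and 1), 7 in the first with all probes and no spot substituted (1 higher and 6 lower, against 3 and 0) and 5 in the first with strict detection (3 higher and 2 lower). With normexp they were 1, 2 and 0. Without scaling, with the members left out, with the median and with all probes, the first comparison had 3 higher and 1 lower, and with the total signal 2 and 2. In the second they were 3 and 3 with all probes and no spot substituted, without scaling and with the total signal, 4 and 2 with the members left out, after quantile normalization and with outlier spots kept, and 2 and 2 with strict detection. In the last comparison all 5 were lower with all probes in the scaling, against 2 higher and 2 lower, and with the brightest probe 2 were higher and 3 lower. No paired analysis was possible because each stage has 1 pool on 1 array. Signal over background did not limit the members, whose spots were all well above background. miR-215 could not be compared between stages because none of its spots was.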
